A study of Saccharomyces cerevisiae with 18 samples.

Results

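The 10 genes described here encode enzymes of the pentose phosphate pathway of Saccharomyces cerevisiae, though not all of them, together with second isozymes. They are ZWF1, SOL3, SOL4, GND1, GND2, RPE1, TKL1, TKL2, TAL1 and NQM1, a list set by gene name and role that uses no measured value in its rule but was drawn up with earlier results of these data known. All 10 were found among the 6692 probes of the count tables, and all 10 were among the 5658 genes that had enough counts to be tested. RNA was sequenced from ZCZ01, a strain in which PPZ1 stands under the galactose-inducible GAL1-10 promoter, and from wild type BY4741, the strain from which ZCZ01 was made. Cells of both strains were first grown on rich medium with glucose, then on raffinose to an OD600 of 0.6, and 2% galactose was then added to both, so that wild type is a control for the sugar as well. Libraries were made 0.5, 2 and 4 h after galactose in 3 experiments, which gives 3 libraries of each strain at each time and 18 in all. Every value below on Ppz1 overexpression thus comes from 1 construct in 1 strain background, and nothing in the labels says that the 3 experiments were separate cultures.

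The pentose phosphate pathway branches from glycolysis at glucose 6-phosphate. Its oxidative branch makes NADPH, which yeast uses for biosynthesis and for the repair of oxidative damage, and its non-oxidative branch exchanges carbon between pentoses, which are needed for nucleotides, and the sugars of glycolysis. At several steps S. cerevisiae has a major enzyme and a paralog with the same or a related activity: SOL3 and SOL4, GND1 and GND2, TKL1 and TKL2, TAL1 and NQM1. PPZ1 encodes a serine/threonine protein phosphatase that is toxic to yeast when made in excess.

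At 2 and 4 h after galactose, ZCZ01 held far more mRNA of 3 second isozymes than wild type, namely NQM1, TKL2 and GND2, and more of SOL4. RPE1 and TAL1 were lower at both times, whereas ZWF1, the entry enzyme, did not pass the test at any time. At 0.5 h, NQM1, TKL2 and GND2 had not passed the test, and SOL4 was lower in ZCZ01. In each of the 4 pairs of isozymes the second member took a larger mean share of the counts in ZCZ01 at 2 h than at 0.5 h, and a larger one again at 4 h. In wild type the mean share also rose from 2 to 4 h for SOL4 (15.9% to 34.3%), GND2 (3.96% to 6.22%) and NQM1 (2.47% to 3.63%), but not for TKL2. Over that step the strain difference in log2 ratio went from 1.87 to 1.91, 4.78 to 4.78 and 6.82 to 6.60 for SOL4, GND2 and NQM1. For TKL2 it went from 3.37 to 5.77.

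The stretches upstream of these genes are given first, for the dehydrogenase and the transaldolase pairs, in which the log2 ratio of the isozymes differed most between the strains at 2 h. At 4 h the transketolase pair differed more than the dehydrogenase pair, and its windows are not printed. Each window is 300 bases of the R64 genome (RefSeq) that leaves out the 100 bases next to the start codon, printed 5′ to 3′ on the coding strand. A stress response element was searched as AGGGG and a Stb5-type motif as CGGNNNTA, each on both strands. Msn2 and Msn4 are known to bind the stress response element, and Stb5 is known as an activator of pentose phosphate genes. GND2 (plus strand, chrVII:1004224-1004523, its first bases within a threonine tRNA gene) and NQM1 (minus strand, chrVII:581537-581836) are shown with stress response elements in capitals. GND1 (plus strand, chrVIII:470560-470859, overlapping the neighbouring YHR182W) and TAL1 (minus strand, chrXII:837458-837757) are shown with Stb5-type motifs in capitals. Each window marks 1 kind of motif only: a Stb5-type match before GND2 and a stress response element before TAL1 are left in lower case.
GND2: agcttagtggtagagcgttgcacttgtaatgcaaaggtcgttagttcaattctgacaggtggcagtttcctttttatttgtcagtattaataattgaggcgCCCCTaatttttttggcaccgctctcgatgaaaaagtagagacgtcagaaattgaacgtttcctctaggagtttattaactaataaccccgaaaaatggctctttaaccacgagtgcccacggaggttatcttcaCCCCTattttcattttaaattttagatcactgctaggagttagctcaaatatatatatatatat
NQM1: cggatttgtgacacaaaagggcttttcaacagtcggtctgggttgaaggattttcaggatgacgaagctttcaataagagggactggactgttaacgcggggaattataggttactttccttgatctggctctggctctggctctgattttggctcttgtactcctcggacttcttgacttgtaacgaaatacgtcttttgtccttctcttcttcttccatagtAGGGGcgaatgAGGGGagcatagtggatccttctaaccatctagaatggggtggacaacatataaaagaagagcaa
GND1: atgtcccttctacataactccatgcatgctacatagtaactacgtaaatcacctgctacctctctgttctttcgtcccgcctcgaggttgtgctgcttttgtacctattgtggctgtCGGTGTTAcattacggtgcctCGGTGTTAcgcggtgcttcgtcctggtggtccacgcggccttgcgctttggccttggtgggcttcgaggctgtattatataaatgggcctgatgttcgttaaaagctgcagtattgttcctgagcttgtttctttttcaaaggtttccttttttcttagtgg
TAL1: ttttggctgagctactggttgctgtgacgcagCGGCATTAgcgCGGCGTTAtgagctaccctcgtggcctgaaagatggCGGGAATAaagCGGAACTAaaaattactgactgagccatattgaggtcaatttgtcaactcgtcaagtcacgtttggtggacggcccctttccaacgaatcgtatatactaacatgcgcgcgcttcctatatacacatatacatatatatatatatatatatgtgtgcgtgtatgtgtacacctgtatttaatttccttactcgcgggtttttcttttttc

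GND2 and NQM1 each held 2 stress response elements in these windows, SOL4 held 1 and TKL2 held none. Among the other members, ZWF1 held 2, TKL1 and TAL1 held 1 each, and SOL3, GND1 and RPE1 held none. Of 6001 windows of the same length before annotated genes, 23.5% held at least 1 such element and 4.12% at least 2. The Stb5-type motif was found 4 times before TAL1, 3 times before ZWF1, 2 times before SOL3 and GND1, and 1 time before TKL1 and GND2. At least 1 was present in 24.4% of all windows and at least 2 in 3.98%. SOL4, RPE1, TKL2 and NQM1 had none, and a Yap1-type motif, searched as TTACTAA and TTAGTAA on both strands and present in 6.82% of windows, was not found before any of the 10 genes. A match is only a run of letters.

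**Figure D1:**
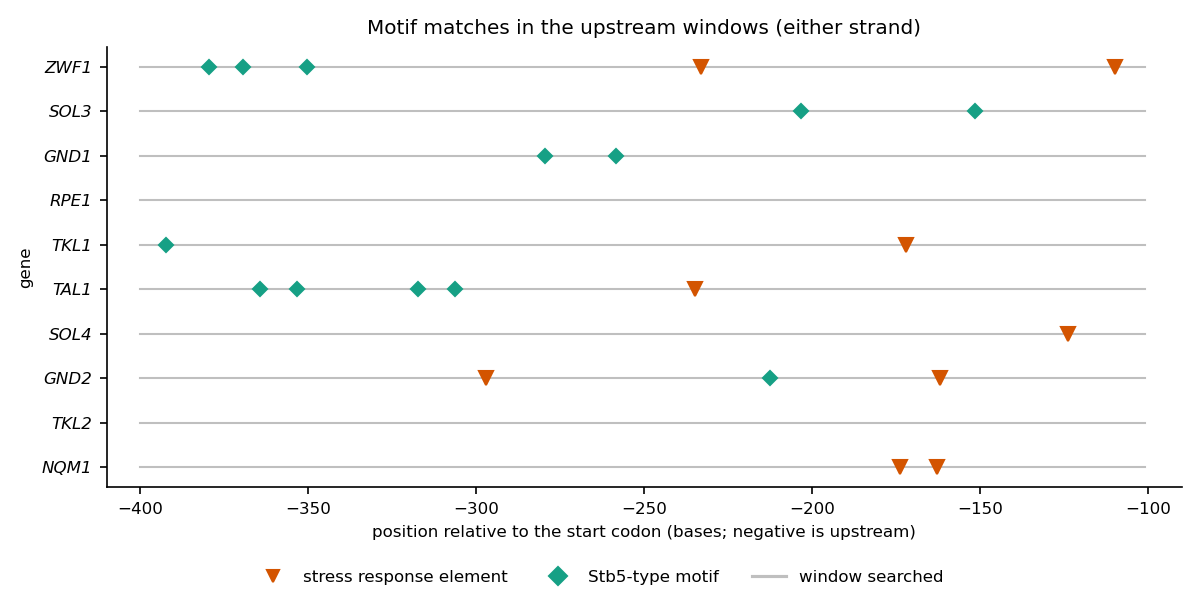
Positions of stress response elements (triangles) and Stb5-type motifs (diamonds) in the 300 bases searched before each gene; the x axis is the distance from the start codon in bases, and each grey line is 1 window. TAL1 has 4 Stb5-type motifs and NQM1 has 2 stress response elements, while RPE1 and TKL2 have neither.

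The libraries held 955972 to 1920193 counts, with a median of 1647535, and levels are given as CPM, the share of a library's counts that fell to a gene, scaled to a fixed library size after TMM normalization. They are shares of a library, so less mRNA of 1 gene cannot be told apart from more RNA of the rest. PPZ1 was read first as a check of the labels. In experiments 1, 2 and 3, PPZ1 had 508, 131 and 131 CPM in ZCZ01 at 0.5 h, 89.5, 394 and 458 CPM at 2 h, and 21.0, 96.5 and 89.1 CPM at 4 h, against 4.59 to 10.7 CPM in the 9 wild type libraries. The 4 genes specific to mating type a (STE2, MFA1, MFA2 and BAR1) summed to at least 1734 counts in each library, and the 3 alpha-specific ones (STE3, MFALPHA1 and MFALPHA2) to at most 83. Of the genes deleted in BY4741, MET17 had 0 counts throughout, LEU2 and URA3 together at most 27, and HIS3, of which BY4741 keeps a part, at most 286.

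The libraries of experiments 2 and 3 differed from each other by little more than counting noise. Over genes, the chi-square statistic per degree of freedom was 1.12 to 2.60 between these experiments for the same strain and time, against 20.8 to 44.6 between experiment 1 and either of them. Because such libraries may not be independent, p-values can be too small, and a call that was lost when the counts of experiments 2 and 3 were added together is named as such. For 12 of 18 libraries the title and the library name disagree on the time, since the titles exchange time and replicate number. Library names, which are also the column names, were used here. With the times of the titles, 0 members passed edgeR's test at any of the times, and over all genes 0, 2 and 1 genes passed at 0.5, 2 and 4 h. At an unadjusted p under 0.05, 2, 3 and 3 members were then higher in ZCZ01 and 0, 0 and 1 lower. The share of all genes at that unadjusted p is not given here, so these counts are not read as a result about the members.

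Genes were called at a Benjamini-Hochberg adjusted p under 0.05 in edgeR's quasi-likelihood test, over all 5658 genes. At 0.5 h, 1 member was higher in ZCZ01 and 1 was lower, beside 4.56% and 2.30% of all genes. At 2 h, 5 members were higher and 2 lower, beside 19.1% and 23.2%. At 4 h, 4 were higher and 4 lower, beside 19.9% and 21.4%. The counts at 0.5 h moved with the experiments in the fit, for all genes as for the members. Without experiment 1, 4 members were higher and 1 lower, among 1438 genes called. Without experiment 2 or without experiment 3, 0 members were called, among 19 and 14 genes, although SOL4 was lower and TKL1 higher in ZCZ01 in each of the 3 experiments. The median log2 fold change of the members was 0.24, 0.45 and 0.20 at the 3 times, against 0.0082, -0.05 and 0.0026 over all genes. The ratio of ZCZ01 to wild type was higher at 2 h than at 0.5 h for 4 members and lower for 3, beside 12.5% and 18.2% of all genes, and higher at 4 h than at 2 h for 1 and lower for 2, beside 6.86% and 6.88%. All ZCZ01 libraries stood above all wild type libraries for 2, 5 and 4 members at 0.5, 2 and 4 h, beside 11.5%, 20.5% and 19.2% of all genes, and below them for 1, 3 and 2 members, beside 10.0%, 23.6% and 20.1%. With experiments 2 and 3 added together, only 5 of all genes were called at 0.5 h, 1366 at 2 h and 1411 at 4 h. In that fit 0 members passed at 0.5 h, where 1 was higher and 1 lower at an unadjusted p under 0.05. With so few genes called, a call lost at 0.5 h is not particular to the members. In the same fit SOL4, GND2, TKL2 and NQM1 were higher at 2 h and again at 4 h, and RPE1 and TAL1 were lower at both times.

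**Figure D2:**
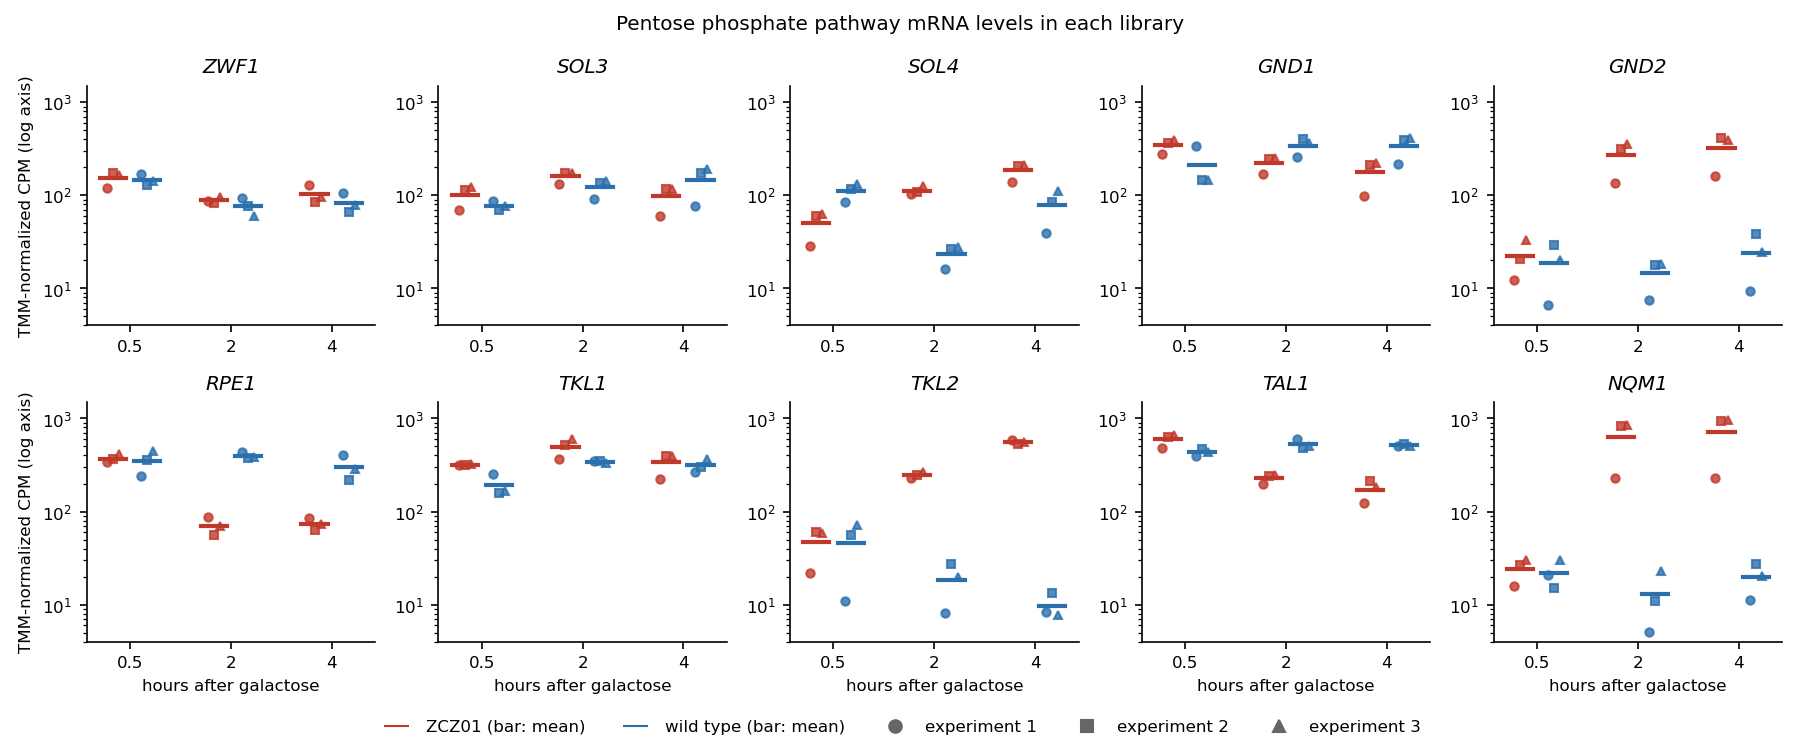
mRNA level of each member in each library, in CPM after TMM scaling on a log axis, at 0.5, 2 and 4 h after galactose. ZCZ01 (red) stands left of wild type (blue), the shape of a point gives the experiment, and bars are means of 3 libraries; at 2 and 4 h all ZCZ01 libraries lie above all wild type libraries for SOL4, GND2, TKL2 and NQM1, and below them for RPE1 and TAL1.

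ZWF1 (YNL241C, chrXIV:196426-197943, minus strand) encodes glucose 6-phosphate dehydrogenase, which commits glucose 6-phosphate to the pathway and makes its first NADPH. At 2 h, ZWF1 had 87.3, 82.6 and 95.1 CPM in experiments 1, 2 and 3 of ZCZ01, against 94.3, 76.7 and 60.0 CPM in wild type. At 4 h, ZWF1 had 131, 84.4 and 96.8 CPM in ZCZ01, against 106, 66.0 and 78.6 CPM in wild type. Libraries of the strains overlapped at all 3 times. The log2 fold change was 0.05 ± 0.19 (SE from edgeR's fit to all 18 libraries, n = 3 pairs) at 0.5 h, 0.22 ± 0.20 at 2 h and 0.32 ± 0.20 at 4 h, with adjusted p = 0.926, 0.403 and 0.216. ZWF1 fell between 0.5 and 2 h in both strains, by 0.81 ± 0.21 on the log2 scale in ZCZ01 (adjusted p = 0.00545) and by 0.94 ± 0.21 in wild type (adjusted p = 0.0035). Both of these calls were lost with experiments 2 and 3 added together (adjusted p = 0.0988 and 0.0631).

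SOL3 (YHR163W, chrVIII:423724-424473, plus strand) and SOL4 (YGR248W, chrVII:985972-986739, plus strand) encode 6-phosphogluconolactonases, the second step. SOL4 was the member with the largest strain difference at 0.5 h. It had 28.7, 59.7 and 62.5 CPM in ZCZ01 at that time, against 84.3, 119 and 133 CPM in wild type, so that the groups did not overlap. The fold change was -1.20 ± 0.20 on the log2 scale (adjusted p = 0.0027), the 39th lowest of 5658 genes, and its adjusted p was 0.0641 with experiments 2 and 3 added together.

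At 2 h the order of the strains was turned round. SOL4 had 103, 108 and 127 CPM in ZCZ01 at 2 h, against 16.3, 26.6 and 27.6 CPM in wild type, a log2 difference of 2.27 ± 0.22 (adjusted p = 3.13e-06). At 4 h, SOL4 had 141, 207 and 213 CPM in ZCZ01, against 39.0, 84.9 and 111 CPM in wild type, a log2 difference of 1.34 ± 0.19 (adjusted p = 0.000103). Both strains contributed to the turn between 0.5 and 2 h: SOL4 rose by 1.23 ± 0.20 in ZCZ01 (adjusted p = 0.000169) and fell by 2.26 ± 0.22 in wild type (adjusted p = 2.03e-06). From 2 to 4 h SOL4 rose in both, by 0.70 ± 0.19 in ZCZ01 (adjusted p = 0.0367) and by 1.68 ± 0.22 in wild type (adjusted p = 0.000271). Those later rises had adjusted p = 0.407 and 0.0546 with experiments 2 and 3 added together.

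SOL3 differed much less. At 4 h, SOL3 had 60.2, 116 and 117 CPM in ZCZ01, against 77.4, 174 and 192 CPM in wild type. The groups overlapped because experiment 1 was low in both strains, while within each experiment ZCZ01 was the lower one. The log2 fold change was -0.56 ± 0.19 (adjusted p = 0.0286), a call that was lost with experiments 2 and 3 added together (adjusted p = 0.195) and under 5 of the other settings that kept all libraries and their times. At 0.5 and 2 h, SOL3 did not pass the test, with log2 fold changes of 0.35 ± 0.20 and 0.40 ± 0.19.

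GND1 (YHR183W, chrVIII:470960-472429, plus strand) and GND2 (YGR256W, chrVII:1004624-1006102, plus strand) encode 6-phosphogluconate dehydrogenase, which makes the second NADPH and ribulose 5-phosphate. GND1 is the major form of glucose-grown cells. GND2 had 12.2, 20.9 and 33.5 CPM in ZCZ01 at 0.5 h, against 6.57, 29.0 and 20.3 CPM in wild type, with no order between the strains. At 2 h, it had 137, 315 and 361 CPM in ZCZ01, against 12, 23 and 31 counts in wild type (7.55 to 18.2 CPM). The 4 h libraries had 162, 416 and 395 CPM in ZCZ01, against 9.46, 38.7 and 24.6 CPM in wild type. The lowest ZCZ01 library at 2 or 4 h thus held more than 3 times the level of the highest wild type library.

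For GND2 the fold change at 2 h was 18.4, or 4.21 ± 0.23 on the log2 scale (adjusted p = 1.71e-08), the 29th highest of all genes. At 4 h it was 14.0, or 3.81 ± 0.22 (adjusted p = 2.15e-08). In ZCZ01 GND2 rose by 3.58 ± 0.22 between 0.5 and 2 h (adjusted p = 2.72e-09) and then moved by 0.25 ± 0.18 to 4 h (adjusted p = 0.445). In wild type neither step passed the test, with log2 changes of -0.28 ± 0.27 and 0.67 ± 0.26.

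GND1 went the other way late. At 2 h, GND1 had 170, 248 and 252 CPM in ZCZ01, against 260, 402 and 365 CPM in wild type, and the groups did not overlap, but the adjusted p was 0.06 (log2 fold change -0.61 ± 0.25). By 4 h, GND1 had 99.4, 215 and 223 CPM in ZCZ01, against 216, 399 and 413 CPM in wild type. The log2 fold change at that time was -0.96 ± 0.25 (adjusted p = 0.00729), and its adjusted p was 0.053 with experiments 2 and 3 added together. At 0.5 h the experiments disagreed for GND1: log2 ratios of ZCZ01 to wild type were -0.30, 1.30 and 1.43 in experiments 1, 2 and 3.

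RPE1 (YJL121C, chrX:190374-191090, minus strand) encodes ribulose-5-phosphate 3-epimerase, which makes the xylulose 5-phosphate that transketolase uses, and yeast has no second gene for it among these members. At 0.5 h the strains overlapped, with 338, 363 and 412 CPM in ZCZ01 and 244, 361 and 446 CPM in wild type. At 2 h, RPE1 had 86.2, 55.8 and 70.2 CPM in ZCZ01, against 438, 372 and 386 CPM in wild type. At 4 h, it had 84.5, 62.8 and 72.8 CPM in ZCZ01, against 404, 218 and 286 CPM in wild type. ZCZ01 libraries thus formed a narrow low group at both later times.

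RPE1 was 5.67-fold lower in ZCZ01 at 2 h (log2 fold change -2.50 ± 0.16, adjusted p = 7.98e-08), the 47th lowest of all genes, and 4.05-fold lower at 4 h (log2 fold change -2.02 ± 0.16, adjusted p = 5.34e-07). RPE1 fell in ZCZ01 by 2.40 ± 0.23 between 0.5 and 2 h (adjusted p = 5.77e-07). In wild type the same step gave 0.18 ± 0.22 (adjusted p = 0.624). The change of the strain ratio between these times was -2.62 ± 0.22 (adjusted p = 2.59e-06).

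TKL1 (YPR074C, chrXVI:692796-694838, minus strand) and TKL2 (YBR117C, chrII:474392-476437, minus strand) encode transketolases, which move 2-carbon units between sugar phosphates; TKL1 is the major form. TKL2 had 21.9, 59.7 and 59.0 CPM in ZCZ01 at 0.5 h, against 10.95, 56.2 and 72.1 CPM in wild type. At 2 h, it had 229, 248 and 264 CPM in ZCZ01, against 8.17, 27.4 and 20.0 CPM in wild type. By 4 h, TKL2 had 590, 535 and 564 CPM in ZCZ01, against 8.27, 13.2 and 7.72 CPM in wild type. TKL2 was the one member whose ratio between the strains passed as higher at 4 h than at 2 h (2.08 ± 0.44 on the log2 scale, adjusted p = 0.00764), with an adjusted p of 0.106 with experiments 2 and 3 added together.

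For TKL2 the log2 fold change was 3.80 ± 0.28 at 2 h (14.0-fold, adjusted p = 2.53e-07) and 5.89 ± 0.31 at 4 h (59.3-fold, adjusted p = 8.43e-09), the 42nd and the 17th highest of all genes. TKL2 rose in ZCZ01 by 2.50 ± 0.37 between 0.5 and 2 h (adjusted p = 5.79e-05) and by 1.22 ± 0.33 between 2 and 4 h (adjusted p = 0.037). In wild type it fell by 1.26 ± 0.43 between 0.5 and 2 h (adjusted p = 0.0446). The rise in ZCZ01 after 2 h and the fall in wild type were lost with experiments 2 and 3 added together (adjusted p = 0.318 and 0.242). TKL2 shares 435 bases at its 3′ end with YBR116C on the same strand, and the counts of both probes moved as one (Pearson r = 0.9998 over 18 libraries), so reads of TKL2 and YBR116C cannot be told apart.

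TKL1 changed little beside its paralog. At 0.5 h, TKL1 had 316, 318 and 323 CPM in ZCZ01, against 254, 157 and 168 CPM in wild type, and at 2 h it had 371, 517 and 595 CPM in ZCZ01, against 345, 345 and 335 CPM in wild type. ZCZ01 libraries stood above all wild type libraries at both times, with log2 fold changes of 0.75 ± 0.19 (adjusted p = 0.0256) and 0.51 ± 0.18 (adjusted p = 0.0373). Both calls were lost with experiments 2 and 3 added together (adjusted p = 0.383 and 0.221). At 4 h the groups overlapped, and the log2 fold change was 0.07 ± 0.18 (adjusted p = 0.779), while without experiment 1 it was 0.24 ± 0.08 (adjusted p = 0.0056).

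TAL1 (YLR354C, chrXII:836350-837357, minus strand) encodes transaldolase, and NQM1 (YGR043C, chrVII:580435-581436, minus strand) its paralog, whose role in the pathway is less clear. NQM1 had the largest change of all members at 2 h. At 0.5 h, NQM1 had 15.8, 26.4 and 30.1 CPM in ZCZ01, against 20.8, 14.9 and 30.2 CPM in wild type. At 2 h, it had 231, 838 and 843 CPM in ZCZ01, against 5.03, 10.96 and 22.9 CPM in wild type. By 4 h, NQM1 had 232, 947 and 958 CPM in ZCZ01, against 11.2, 27.3 and 20.3 CPM in wild type. Experiment 1 reached a lower level in ZCZ01 than experiments 2 and 3, yet it also lay at the low end in wild type at these times.

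NQM1 was 48.4-fold higher in ZCZ01 at 2 h (log2 fold change 5.60 ± 0.27, adjusted p = 5.79e-09), the 8th highest of 5658 genes, and 33.5-fold higher at 4 h (5.07 ± 0.26, adjusted p = 7.51e-09), the 26th highest. The log2 ratio in the single experiments was 5.35, 6.18 and 5.16 at 2 h. In ZCZ01 NQM1 rose between 0.5 and 2 h (4.60 ± 0.34, adjusted p = 2.32e-08), and the step to 4 h was 0.14 ± 0.28 (adjusted p = 0.814). In wild type NQM1 passed the test at neither step.

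TAL1 fell in ZCZ01 over the time in which NQM1 rose, by 1.38 ± 0.17 between 0.5 and 2 h (adjusted p = 1.02e-05). At 2 h, TAL1 had 197, 242 and 248 CPM in ZCZ01, against 602, 485 and 502 CPM in wild type. By 4 h, TAL1 had 122, 211 and 184 CPM in ZCZ01, against 505, 533 and 509 CPM in wild type. The groups did not overlap at either time, and the log2 fold changes were -1.21 ± 0.17 (adjusted p = 7.92e-05) and -1.61 ± 0.17 (adjusted p = 6.75e-06). At 0.5 h, TAL1 stood above wild type in all 3 ZCZ01 libraries, at 486, 639 and 670 CPM against 396, 466 and 441 CPM, but did not pass the test (0.45 ± 0.16, adjusted p = 0.126).

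**Figure D3:**
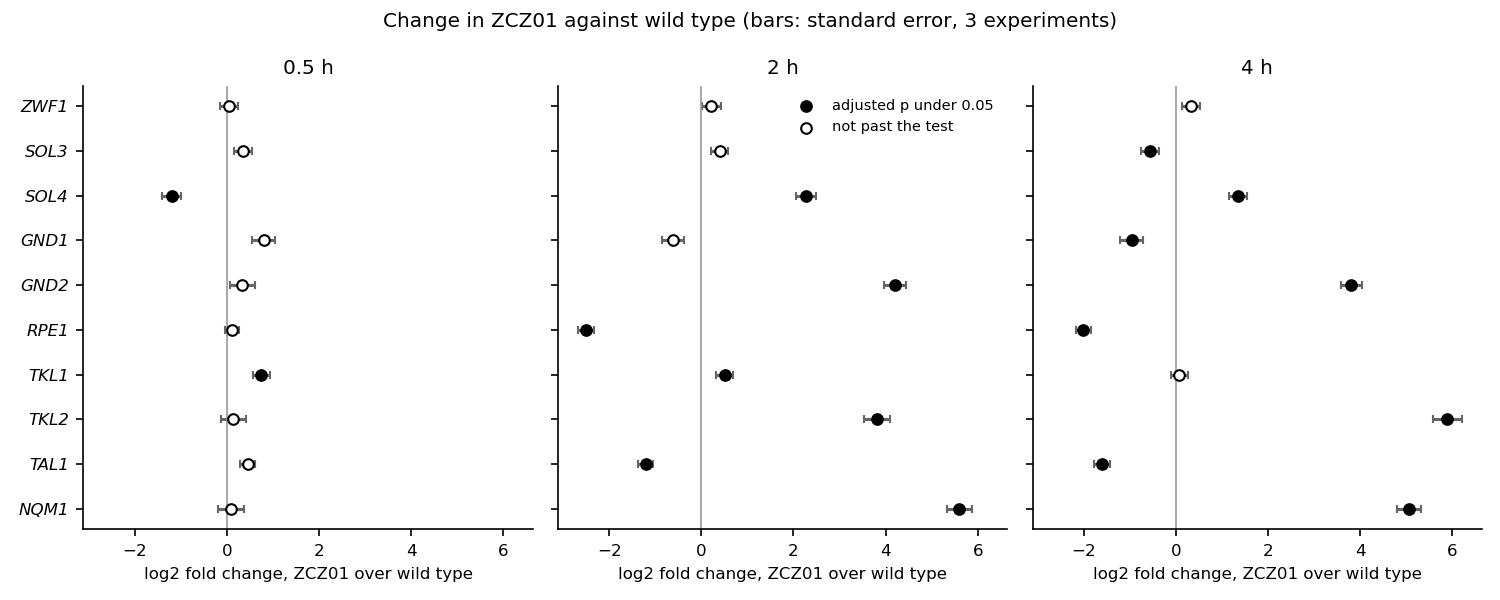
Log2 fold change of each member in ZCZ01 over wild type at 0.5, 2 and 4 h, with bars for the standard error from edgeR's fit to all 18 libraries. Filled points passed an adjusted p under 0.05. At 0.5 h SOL4 is low, and at 2 and 4 h GND2, TKL2 and NQM1 lie between 3.80 and 5.89 while RPE1 and TAL1 lie below 0.

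The balance within each pair was read as the share of the second isozyme in the counts of both. Reads come from the 3′ ends of mRNAs, so a share is not scaled by length. Priming can differ between genes, and a share is therefore set against the same share in the other strain or at another time and is not read as which isozyme was the more abundant. GND2 took 5.84% ± 1.87, 53.1% ± 7.55 and 63.9% ± 2.00 (SD, n = 3) of the GND2 and GND1 counts in ZCZ01 at 0.5, 2 and 4 h, against 10.2% ± 7.52, 3.96% ± 1.01 and 6.22% ± 2.38 in wild type. The share was thus far higher in ZCZ01 than in wild type at 2 and 4 h, with no overlap of the libraries.

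NQM1 took 3.80% ± 0.586, 69.6% ± 13.5 and 77.1% ± 10.0 of the NQM1 and TAL1 counts in ZCZ01, against 4.83% ± 1.65, 2.47% ± 1.79 and 3.63% ± 1.37 in wild type. TKL2 took 12.6% ± 5.28, 33.8% ± 3.94 and 62.9% ± 8.40 of the TKL2 and TKL1 counts in ZCZ01, against 20.2% ± 14.0, 5.10% ± 2.56 and 3.07% ± 1.06 in wild type. Most of the gain in the NQM1 share in ZCZ01 was present at 2 h, whereas much of the gain in the TKL2 share came between 2 and 4 h. SOL4 took 32.4% ± 2.96, 41.2% ± 2.54 and 66.2% ± 3.31 of the SOL4 and SOL3 counts in ZCZ01, against 58.5% ± 8.10, 15.9% ± 0.623 and 34.3% ± 2.08 in wild type. The SOL4 share was thus lower in ZCZ01 at 0.5 h and higher at 2 and 4 h.

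The 95% Wilson interval of a single library's share was at most 13.8 percentage points wide and covers counting error only. As a log2 ratio of the isozymes, ZCZ01 minus wild type, the difference at 2 h was 1.87 for SOL4 to SOL3, 4.78 for GND2 to GND1, 3.37 for TKL2 to TKL1 and 6.82 for NQM1 to TAL1. At 4 h it was 1.91, 4.78, 5.77 and 6.60 in the same order. Each of these 8 differences had p = 0.1 in a two-sided exact permutation test, the smallest p that 3 against 3 libraries allow, as had the difference of -1.56 for SOL4 to SOL3 at 0.5 h. The design can therefore not bring such a ratio under 0.05 by permutation.

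**Figure D4:**
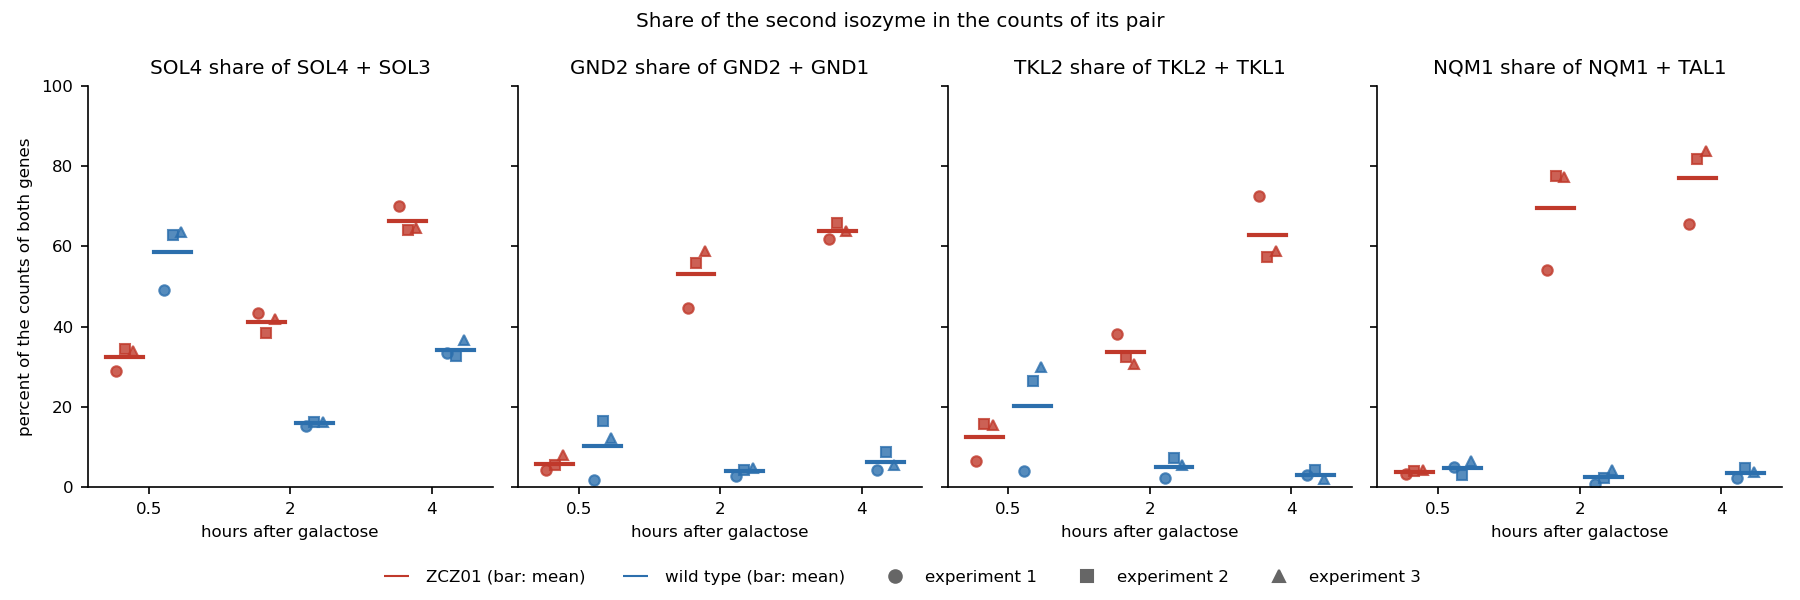
Share of SOL4, GND2, TKL2 and NQM1 in the counts of their pair, in percent, in each library at 0.5, 2 and 4 h; ZCZ01 (red) stands left of wild type (blue), shapes give the experiment and bars are means of 3 libraries. In ZCZ01 the mean share at 4 h is 62.9% to 77.1% in all 4 pairs, and in wild type it is 3.07% to 34.3%.

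The summed level of each pair at 4 h was read beside its balance. SOL4 and SOL3 together had 201, 323 and 330 CPM in ZCZ01, against 116, 259 and 302 CPM in wild type, and ZCZ01 was the higher one within each experiment. TKL2 and TKL1 together had 813, 934 and 958 CPM in ZCZ01 at 4 h, against 275, 318 and 377 CPM in wild type. NQM1 and TAL1 together had 354, 1158 and 1142 CPM in ZCZ01 at 4 h, against 516, 560 and 529 CPM in wild type. The sum of this pair was thus lower in ZCZ01 in experiment 1 and higher in experiments 2 and 3. GND2 and GND1 together had 261, 631 and 618 CPM in ZCZ01 at 4 h, against 225, 437 and 437 CPM in wild type, and ZCZ01 was the higher one within each experiment. Over all 10 genes the sum at 4 h was 1844, 3194 and 3217 CPM in ZCZ01, against 1643, 1858 and 2011 CPM in wild type.

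Within ZCZ01, 6 members rose between 0.5 and 2 h and 3 fell, beside 16.8% and 19.0% of all genes. Those that rose were SOL3, SOL4, GND2, TKL1, TKL2 and NQM1, and those that fell were ZWF1, RPE1 and TAL1. Within wild type, TKL1 rose and ZWF1, SOL4 and TKL2 fell over the same time, beside 11.1% and 9.40%. Between 2 and 4 h, SOL4 and TKL2 rose in ZCZ01 (background 2.63%) and SOL4 rose in wild type (background 5.18%). In the same step 0 members fell in ZCZ01 by edgeR (background 3.46%), with 3 at an unadjusted p under 0.05 and 1, SOL3, by DESeq2. In wild type (background 5.76%) 0 fell in edgeR, in DESeq2 and at an unadjusted p under 0.05. In the fit with experiments 2 and 3 added together, SOL4, GND2, TKL2 and NQM1 rose in ZCZ01 between 0.5 and 2 h. Over that step RPE1 and TAL1 fell in ZCZ01, and SOL4 fell in wild type. Between 2 and 4 h, 0 members passed in either strain in that fit. At an unadjusted p under 0.05, 2 were then higher and 1 lower in ZCZ01, and 1 was higher in wild type. The share of all genes called in these steps in that fit is not given. The 0 is thus not read as a result about the members.

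**Figure D5:**
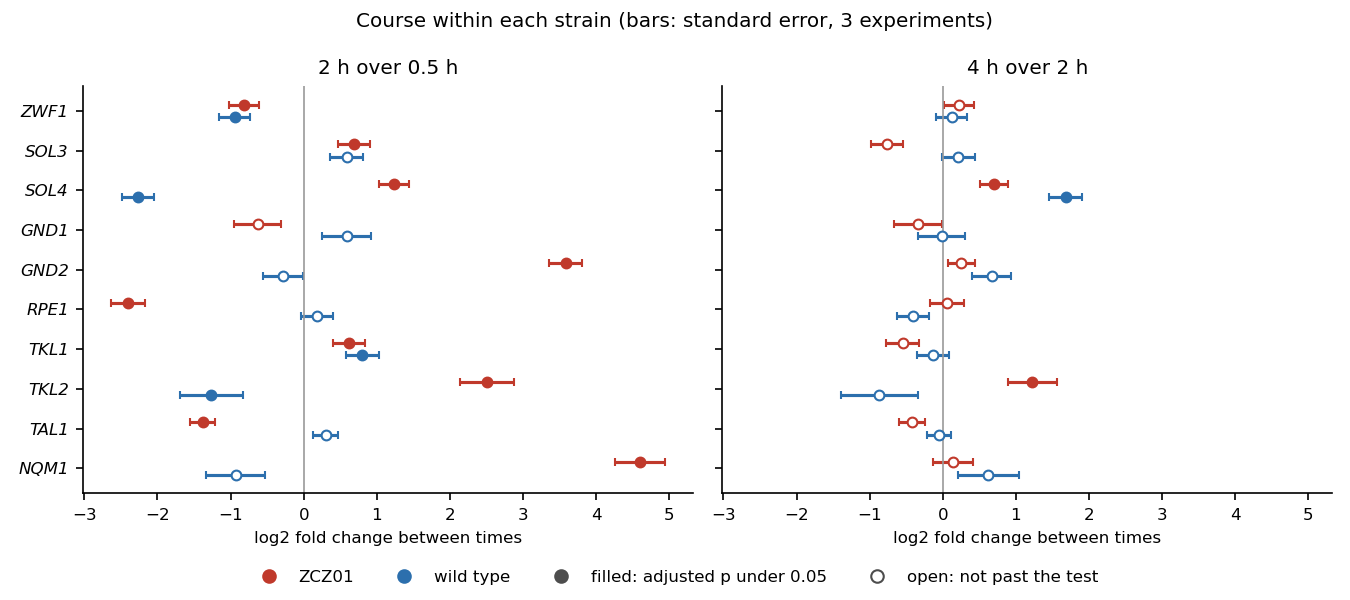
Log2 fold change of each member between 0.5 and 2 h and between 2 and 4 h within ZCZ01 (red, upper point) and wild type (blue, lower point). Bars are the standard error from edgeR's fit to all 18 libraries, and filled points passed an adjusted p under 0.05. GND2, TKL2 and NQM1 move by 2.50 to 4.60 in ZCZ01 in the first step, and RPE1 by -2.40.

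Across the 18 libraries, log2 CPM of NQM1 and GND2 had a Pearson r of 0.97, and NQM1 and RPE1 one of -0.95. RPE1 and TAL1 had an r of 0.89, and SOL3 and TKL1 one of 0.74, while TKL1 had an r of 0.53 with NQM1 and -0.54 with RPE1. These values describe 2 strains at 3 times and share the libraries of ZCZ01 at 2 and 4 h as one end. By the same measure the genes most like NQM1 were YPR127W (0.99), AAD10 (0.97) and YJR079W (0.97), and those most like GND2 were VMA1 (0.97), ATG8 (0.96) and YPR127W (0.96). For SOL4 they were MSC1 (0.96), DCS2 (0.94) and TPS1 (0.94), and for TKL2, beside the overlapping YBR116C, they were YGR201C (0.98) and YMR175W-A (0.97).

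Of 12 further genes listed for the pathway and its pentose exits, 2 were higher in ZCZ01 at 0.5 h and 0 lower. At 2 h, 3 were higher and 2 lower, and at 4 h, 1 was higher and 3 lower. The list includes SOL1 and SOL2, whose part in the pathway was not tested here. SOL1 had the largest change of the list at 2 h (1.48 ± 0.40, adjusted p = 0.00866). Over all genes 4.56% and 2.30% were higher and lower at 0.5 h, 19.1% and 23.2% at 2 h, and 19.9% and 21.4% at 4 h, so that the list was near or below the background at the later times. RKI1, ribose-5-phosphate isomerase, which stands beside RPE1 at the branch point, was higher at 0.5 h only, by 1.24 ± 0.18 on the log2 scale (adjusted p = 0.00107), and had -0.15 ± 0.16 at 2 h and -0.09 ± 0.17 at 4 h. PRS3, of the family that makes phosphoribosyl pyrophosphate, was higher at 0.5 h (1.01 ± 0.17, adjusted p = 0.0027) and lower at 4 h (-0.67 ± 0.16, adjusted p = 0.00474). SHB17, sedoheptulose-1,7-bisphosphatase, was lower at 4 h (-1.27 ± 0.17, adjusted p = 5.35e-05), as was XKS1, xylulokinase (-0.85 ± 0.21, adjusted p = 0.00609). YDR248C, a putative gluconokinase, was higher at 2 h (0.97 ± 0.24, adjusted p = 0.00581) and 4 h (0.63 ± 0.24, adjusted p = 0.0485). The median of the list was 0.33, 0.12 and -0.35 at the 3 times, against 0.0082, -0.05 and 0.0026 over all genes. DESeq2 called 2 higher and 0 lower at 2 h, and 0 higher and 3 lower at 4 h, so that YDR248C was not called at 4 h. With experiments 2 and 3 added together, YDR248C at 2 h and SHB17 at 4 h kept their call and the list had no other.

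Of 8 genes that supply NADPH outside the pathway or make NADP, 2 were higher at 2 h and 2 at 4 h. Over all genes 19.1% and 19.9% were higher, a share near that of the list. At either time 0 of the list were lower, beside 23.2% and 21.4% of all genes. At 0.5 h, 0 passed in edgeR or DESeq2, with 2 at an unadjusted p under 0.05. At that time 4.56% and 2.30% of all genes were higher and lower in edgeR. IDP2, the cytosolic NADP-dependent isocitrate dehydrogenase, was higher at 4 h (1.64 ± 0.29, adjusted p = 0.000569), and UTR1, a NAD kinase, at 2 h (0.60 ± 0.18, adjusted p = 0.0156) and 4 h (0.55 ± 0.17, adjusted p = 0.0223). DESeq2 made the call of IDP2 but neither call of UTR1, and it also called MAE1 higher at 2 h. IDP3, the peroxisomal form, was higher at 2 h (0.85 ± 0.25, adjusted p = 0.0153). IDP2 at 4 h was the one call of the list that remained with experiments 2 and 3 added together. ALD6, cytosolic aldehyde dehydrogenase and a main source of NADPH beside ZWF1, had 0.25 ± 0.20, 0.26 ± 0.20 and 0.37 ± 0.20 at the 3 times and did not pass.

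Around the branch point in glycolysis, 0 of 7 genes passed at 0.5 h by edgeR (3 at an unadjusted p under 0.05, and 1, HXK1, by DESeq2), 2 were higher and 2 lower at 2 h (background 19.1% and 23.2%), and 6 were lower at 4 h (background 21.4%). PFK1, a subunit of phosphofructokinase, was higher at 2 h (1.40 ± 0.17, adjusted p = 2.21e-05) and lower at 4 h (-0.52 ± 0.16, adjusted p = 0.0224). PGI1, phosphoglucose isomerase, was also higher at 2 h (0.43 ± 0.14, adjusted p = 0.0287) and lower at 4 h (-0.80 ± 0.14, adjusted p = 0.00061). The hexokinase genes HXK2 and HXK1 were lower at 2 h, at -3.50 ± 0.17 (adjusted p = 5.79e-09) and -2.26 ± 0.14 (adjusted p = 6.11e-08). At 4 h they were at -2.85 ± 0.17 (adjusted p = 2.47e-08) and -1.76 ± 0.14 (adjusted p = 4.55e-07). GLK1, glucokinase, and PFK2, the other subunit of phosphofructokinase, were lower at 4 h, at -1.64 ± 0.36 (adjusted p = 0.00262) and -1.59 ± 0.17 (adjusted p = 6.24e-06). The median of the list at 4 h was -1.59, against 0.0026 over all genes. With experiments 2 and 3 added together, 5 of the 6 were called lower at 4 h, all but PFK1, and at 2 h PFK1 was called higher and PGI1 was not (adjusted p = 0.25). Of the 4 regulators STB5, YAP1, MSN2 and MSN4, 0 passed between the strains at any time in edgeR or DESeq2. In edgeR the background for higher calls was 4.56%, 19.1% and 19.9% at 0.5, 2 and 4 h. For lower calls it was 2.30%, 23.2% and 21.4%. A list of 4 genes is short, so this 0 is not taken as a finding about the regulators. At an unadjusted p under 0.05, 0, 0 and 1 of them differed at 0.5, 2 and 4 h. MSN4 at 4 h had -1.20 ± 0.46 (adjusted p = 0.0514) and was called lower without experiment 1 and without experiment 2. MSN2 was called higher at 2 h without experiment 1. Within wild type, edgeR called MSN4 higher at 4 h than at 2 h (1.48 ± 0.44, adjusted p = 0.0389). It called YAP1 lower at 2 h than at 0.5 h there (-0.49 ± 0.16, adjusted p = 0.0419). Neither of these calls within wild type was checked with experiments 2 and 3 added together. MSN2 and MSN4 were scarce, at group means of 6.02 to 24.0 CPM, and their fold changes between the strains had standard errors of 0.46 to 0.57.

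Reads of neighbours can add to some members. On the opposite strand, probes overlapped by 453 bases for GND1 and YHR182C-A, 98 for GND2 and MTM1, 70 for RPE1 and ALB1, 69 for RPE1 and YJL120W, 64 for SOL3 and DNA2, 57 for NQM1 and YGR042W, and 14 for TAL1 and BUD8. How strand was handled in counting is not stated in the sources, so reads of these partners cannot be told apart from reads of the members. Reads in stretches that paralogs share could also be split between them.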

How the data were processed

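RNA of 18 libraries of the 2 strains was read by QuantSeq, which sequences the 3′ ends of mRNAs. The authors deposited whole-number counts per gene probe, unscaled, in 1 table per experiment; the submitters' processing notes list Bowtie2 with no version. Of 6692 probes, 5955 matched a gene of RefSeq R64 by name, and 5924 of these ran from that gene's start to 100 bases past its end. Genes were filtered by filterByExpr and scaled by TMM in edgeR 4.0.16 (R 4.3.3). For strains, the design matrix had 9 blocks, 1 per experiment and time, plus 3 ZCZ01 terms; for times, it had a block per experiment and 6 groups. Experiment numbers in the labels gave the pairs, and deviations from the group means correlated within pairs at 0.539 to 0.821. Because experiments 2 and 3 were closely alike in each group, this correlation cannot decide how their libraries pair. Standard errors follow from the quasi-likelihood F, and p-values, adjusted by Benjamini-Hochberg, measure the spread between these libraries. Isozyme log2 ratios used a pseudocount of 0.5 and exact permutation tests. Alternatives were other blocks, DESeq2 1.42.0, other scalings and filters, each experiment left out, experiments 2 and 3 summed, and the times of the titles. Scripts were tested on simulated data. The members and lists were chosen with earlier results of these data known. All members were named, with PPZ1, up to 4 called genes per list by the largest change at 4 h and others by name, and for the second isozymes the 3 genes with the highest correlation.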

Additional observations from a re-analysis of the deposited data

Results flagged for a closer look

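For 8 members the difference between ZCZ01 and wild type was itself different between times, by a contrast of the same edgeR model over all 5658 genes. Between 0.5 and 2 h the log2 ratio of ZCZ01 to wild type went up for 4 members and down for 3, beside 12.5% and 18.2% of all genes. It went up by 5.50 for NQM1 (adjusted p = 5.45e-07), 3.87 for GND2 (adjusted p = 5.47e-06), 3.66 for TKL2 (adjusted p = 1.81e-05) and 3.47 for SOL4 (adjusted p = 2.71e-06). SOL4 was the one among them that was called lower in ZCZ01 first and higher later. The change was -2.62 for RPE1 (adjusted p = 2.59e-06), -1.66 for TAL1 (adjusted p = 0.000163) and -1.41 for GND1 (adjusted p = 0.00845). The value of GND1 was not called with experiments 2 and 3 added together (adjusted p = 0.148).

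Between 2 and 4 h the ratio went up for 1 member and down for 2, beside 6.86% and 6.88% of all genes. The change was 2.08 for TKL2 (adjusted p = 0.00764), -0.94 for SOL4 (adjusted p = 0.047) and -0.96 for SOL3 (adjusted p = 0.0296). None of these 3 calls remained with experiments 2 and 3 added together (adjusted p = 0.106, 0.265 and 0.229), where they had unadjusted p under 0.05.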

How the results depend on the processing

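Of 43 called values of members, 25 kept their call under every alternative that kept the times of the library names, and none of the 43 turned its sign there. Those 25 are SOL4, GND2, TKL2 and NQM1 (higher) and RPE1 and TAL1 (lower) in ZCZ01 at 2 h and at 4 h, the change of their strain ratio between 0.5 and 2 h, their change within ZCZ01 over that step, and the fall of SOL4 in wild type. Over the 43 values, 397 of 474 alternative values kept the call. Scaling by total counts moved the median log2 fold change of all genes at 2 h by 0.142 and by the upper quartile by 0.112. Depth limits the scarce forms, since NQM1 had as few as 8 counts in a wild type library, and the widest interval of a share, 13.8 percentage points, was that of SOL4 and SOL3 in a ZCZ01 library.

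Several of the smaller calls moved with the block. For the alternatives below, calls over all genes are given only between the strains at each time. Member counts for ratios between times and for steps within a strain thus stand without a background. With no replicate block, 0 members were higher and 0 lower at 0.5 h and 2 were lower at 4 h. Over all genes this setting called 145 at 0.5 h and 1586 at 4 h in either direction. The ratio from 2 to 4 h was then higher for 0 members and lower for 0, and 0 members rose in ZCZ01 from 2 to 4 h. With no block, 2 values near 0 also changed sign, SOL3 to -0.0060 for the ratio at 2 h against 0.5 h and GND1 in wild type to 0.00036 from 2 to 4 h. With a replicate block per experiment, 0 members were higher at 0.5 h, where 267 of all genes were called, and 1 had a lower ratio at 4 h than at 2 h. With each time alone and pairs as block, 0 were higher at 0.5 h, where 108 of all genes were called.

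DESeq2 called 2 members higher at 0.5 h, where it called 386 of all genes in either direction. It called 1 member with a lower ratio at 4 h than at 2 h and 1 lower in ZCZ01 from 2 to 4 h. Upper quartile scaling left 1 member that rose in ZCZ01 from 2 to 4 h. From 2 to 4 h in wild type, GND1 had 0.029 by DESeq2, 0.12 with total counts and 0.062 with the filter set at a mean of 50 counts, and TAL1 had 0.076 with total counts and 0.023 with that filter. ZWF1 at 0.5 h had -0.018 with total counts. These values were not called and lay within 1 standard error of 0.

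With experiments 2 and 3 added together, 0 members were higher and 0 lower at 0.5 h, where 5 of all genes were called. At 4 h, 2 members were lower, where 1411 genes were called in either direction. The ratio from 2 to 4 h was then higher for 0 members and lower for 0, 0 members rose in ZCZ01 and 0 in wild type over that step, and in wild type 0 rose and 1 fell from 0.5 to 2 h. Values that crossed 0 in this fit were ZWF1 (-0.10) and NQM1 (-0.027) at 0.5 h, TKL1 (-0.0029) at 4 h and the log2 ratio of GND2 to GND1 at 0.5 h (0.0093).

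Leaving out 1 experiment gave 0 to 4 members higher and 0 to 1 lower at 0.5 h, and 2 to 4 lower at 4 h. The ratio from 2 to 4 h was higher for 0 to 2 members and lower for 0 to 5. From 2 to 4 h, 0 to 4 members rose and 0 to 3 fell in ZCZ01, and 0 to 3 rose and 0 to 2 fell in wild type. From 0.5 to 2 h in wild type, 0 to 3 rose and 1 to 3 fell. In each of these counts the highest value came without experiment 1. Between the strains at each time, calls over all genes moved the same way. Leaving out experiment 1, 2 or 3 in turn gave 1438, 19 and 14 genes for 0.5 h. The same order gave 3084, 1301 and 1168 genes for 2 h, and 2965, 1326 and 1183 genes for 4 h. Whether calls over all genes moved likewise for the ratios between times and the steps within strains is not given. Where experiment 2 or 3 is left out, experiment 1 and 1 of the closely alike experiments remain.

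Leaving out 1 experiment also gave ranges across 0 for values that were not called with all libraries. At 0.5 h they were -0.15 to 0.32 for ZWF1, -0.061 to 0.22 for RPE1, -0.13 to 0.44 for TKL2, -0.20 to 0.27 for NQM1 and -1.24 to 0.23 for the log2 ratio of GND2 to GND1. At 4 h the range was -0.077 to 0.24 for TKL1, whose highest value, without experiment 1, was called (adjusted p = 0.0056). For strain ratios it was -0.33 to 0.32 for SOL3 from 0.5 to 2 h and -0.10 to 0.32 for ZWF1 from 2 to 4 h. Within strains it was -0.0010 to 0.12 for RPE1 in ZCZ01 from 2 to 4 h, -0.11 to 0.37 for RPE1 in wild type from 0.5 to 2 h, and in wild type from 2 to 4 h -0.12 to 0.13 for GND1, -0.27 to 0.040 for TKL1 and -0.12 to 0.11 for TAL1.

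With the times of the sample titles, 0 members were higher and 0 lower at 0.5 h, at 2 h and at 4 h. At 0.5 h the log2 fold change was then -0.10 for ZWF1, -0.038 for SOL3, 1.06 for SOL4, -0.67 for GND1, -1.43 for RPE1 and -1.14 for TAL1, and at 4 h it was 0.089 for SOL3. Under the titles each group holds libraries whose names give all 3 times.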
